A study of Mus musculus with 3 samples.

Results

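Forkhead genes encode transcription factors that share a winged-helix DNA-binding domain, and 38 of them were named for Sp9 peaks in the neonatal mouse olfactory bulb. The members are all rows of the authors' peak list whose gene name is Fox, a subclass letter from a to s and a number, such as Foxp1 or Foxo3. The rule found 77 of the 19979 peaks in the list. Each was taken with its position, its width and the authors' peak score. Foxred2, an oxidoreductase gene with a similar name and 2 peaks of scores 368.39 and 145.66, is no forkhead gene and was not counted.

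Sp9, a zinc finger transcription factor, was precipitated with a homemade antibody from formaldehyde-crosslinked olfactory bulb chromatin of CD1 mice at postnatal day 0 to 2. Sp9 chromatin was immunoprecipitated in 2 libraries, and 1 input library was made with no antibody. It belongs to a study of how Sp8 and Sp9 act in olfactory bulb interneuron development, and no genotype other than strain CD1 is labelled. The bulb was taken whole, so the cells that gave a peak are unknown. The list holds peaks that the authors called shared, with 1 score per peak and no value per library, so no error between replicates can be given for any peak and no order of scores was tested. A peak is tied to a gene only by the authors' gene name, and the list gives no distance to a start site. Positions are in build mm9.

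Forkhead factors bind related short sequences, and some of them can bind closed chromatin. In the brain, the Foxp genes are known for striatal and other projection neurons, the Foxo genes for relaying insulin and growth factor signals to the nucleus, and Foxj1 for motile cilia of ependymal cells. Other subclasses are best known from mesenchyme, endoderm, lens, ovary, skin and ear. Sp factors such as Sp9 are known to bind GC boxes, stretches built around GGGCGG.

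The promoters of 5 forkhead genes are shown because Sp factors read GC boxes. Foxc1 had the highest score, Foxo1 and Foxo3 lie in 1 subclass and differ in score, Foxd3 scored high with no GGGCGG in this window, and Foxn1 had no peak. Each sequence holds the 250 bases before the RefSeq start of the gene in build GRCm38.p6. Capitals mark GGGCGG or its reverse complement CCGCCC. The mm9 peaks cannot be placed on these coordinates, so whether a peak covers any of these windows was not tested.
Foxc1 (chr13:31806396-31806645, plus strand): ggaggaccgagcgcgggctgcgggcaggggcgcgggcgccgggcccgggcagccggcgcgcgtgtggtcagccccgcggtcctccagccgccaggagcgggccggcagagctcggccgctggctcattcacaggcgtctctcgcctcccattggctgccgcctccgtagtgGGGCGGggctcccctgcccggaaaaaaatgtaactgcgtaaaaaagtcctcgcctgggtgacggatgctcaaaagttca
Foxo1 (chr3:52268087-52268336, plus strand): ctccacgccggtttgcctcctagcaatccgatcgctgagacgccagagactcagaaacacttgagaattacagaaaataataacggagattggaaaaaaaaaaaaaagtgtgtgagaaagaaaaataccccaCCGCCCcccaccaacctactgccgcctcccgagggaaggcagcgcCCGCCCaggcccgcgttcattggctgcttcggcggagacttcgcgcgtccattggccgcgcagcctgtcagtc
Foxo3 (chr10:42276696-42276945, minus strand): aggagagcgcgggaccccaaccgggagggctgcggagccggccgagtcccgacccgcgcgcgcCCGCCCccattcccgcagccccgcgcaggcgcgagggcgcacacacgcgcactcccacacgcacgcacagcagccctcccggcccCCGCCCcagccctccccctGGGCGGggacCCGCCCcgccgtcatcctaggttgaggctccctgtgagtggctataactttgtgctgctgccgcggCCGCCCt
Foxd3 (chr4:99656049-99656298, plus strand): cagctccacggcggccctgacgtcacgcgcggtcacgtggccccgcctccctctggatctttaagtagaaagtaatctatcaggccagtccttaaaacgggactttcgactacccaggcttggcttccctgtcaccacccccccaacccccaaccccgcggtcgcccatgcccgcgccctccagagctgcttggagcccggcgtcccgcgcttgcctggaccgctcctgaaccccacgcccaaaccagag
Foxn1 (chr11:78386609-78386858, minus strand): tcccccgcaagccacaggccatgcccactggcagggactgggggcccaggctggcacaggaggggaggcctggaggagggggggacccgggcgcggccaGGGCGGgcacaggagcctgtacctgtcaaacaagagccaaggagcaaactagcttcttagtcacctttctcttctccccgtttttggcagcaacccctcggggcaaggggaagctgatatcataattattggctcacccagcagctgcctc
The motif was present 5 times before Foxo3, 2 times before Foxo1, 1 time each before Foxc1 and Foxn1, and 0 times before Foxd3. CG dinucleotides numbered 31 before Foxo3, 29 before Foxc1, 21 before Foxd3, 20 before Foxo1 and 7 before Foxn1.

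Promoter sequences were at hand for 28 of the 44 forkhead genes in the gene table, as 33 promoters. GGGCGG on either strand was present in 23 of these 33 promoters (69.7%), against 42.6% of all 21263 promoters of coding genes. Among genes with a peak, it was present in 21 of 29 forkhead promoters (72.4%), against 57.3% of the promoters of all coding genes with a peak. Coding genes without a peak had it in 22.8%, and the 4 promoters of forkhead genes without a peak in 2. The longer GGGGCGGGG, which contains GGGCGG, was present in 3 of 33 forkhead promoters (9.09%), before Foxc1, Foxo3 and Foxr2, against 13.9% of all. Among genes with a peak, the longer motif was present in 2 of 29 forkhead promoters (6.90%), against 19.7% of the promoters of all coding genes with a peak. The order of the 2 groups thus differed between the short and the long motif. Of the 25 forkhead genes with both a peak and a promoter sequence, 6 had no GGGCGG in any window, namely Foxb2, Foxd3, Foxd4, Foxe3, Foxn3 and Foxr1. Their highest scores ran from 82.74 to 1057.87, almost the whole range of the family. The median number of CG dinucleotides was 16 in forkhead promoters and 10 in all promoters. Among genes with a peak, these medians were 18 and 15.

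Most of the family was named for at least 1 peak. Of 44 coding forkhead genes in the RefSeq table, 38 (86.4%, exact interval 72.6 to 94.8%) had a peak, against 55.4% of all coding genes. A peak at or above the list's median score of 210.06 was present for 31 of the 44 (70.5%), against 35.4% of all coding genes. A broad peak, set here at 2000 bp or more, was present for 15 (34.1%), against 2.82% of all coding genes. No test was run on these shares, because the family was chosen with results of this list known, and the interval treats genes as independent.

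**Figure D1:**
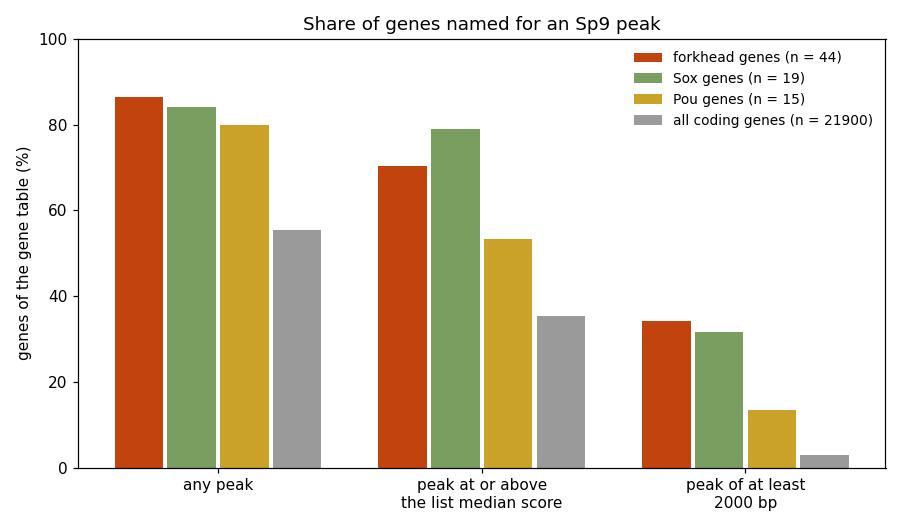
Bars give the percentage of forkhead, Sox, Pou and all coding genes of the gene table that had any Sp9 peak, a peak at or above the list's median score, or a peak of at least 2000 bp. Forkhead genes stood at 86.4%, 70.5% and 34.1%, and all coding genes at 55.4%, 35.4% and 2.82%. Bars are drawn without counting intervals, and no error between replicates can be given because the list has no value per library.

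The Sox, Pou and Zfp families of transcription factors were counted in the same way. Sox genes, which encode HMG-box factors, had 16 of 19 genes with a peak (84.2%). Of the 19, 15 (78.9%) had one at or above the list's median and 6 (31.6%) a broad one. Pou homeobox genes had 12 of 15 (80%) with a peak, 8 (53.3%) at or above the list's median and 2 (13.3%) with a broad one. Lower shares were those of the Zfp zinc finger genes, where 216 of 367 (58.9%) had a peak, 110 had one at or above the list's median and 9 had a broad one. The differences between families were not tested.

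The 77 forkhead scores ran from 80.99 to 1308.26 with a median of 327.37, against 210.06 for the whole list. Scores at or above the list's median numbered 48 of 77 (62.3%), against 50.0% of all peaks. Among the highest scores the gap was wider: 6 forkhead peaks (7.79%) scored over 1000, against 1.11% of all peaks. Among these 6 were peaks of Foxc1, Foxq1, Foxd2, Foxd3 and Foxe1. The highest, Foxc1, held rank 84 in the list. In the top decile of the list, from score 536.03 upwards, lay 22 forkhead peaks (28.6%), and in the bottom decile, up to 96.22, lay 10. An even spread would put 7.7 in each, so the bottom decile was close to it and the top decile well above it.

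**Figure D2:**
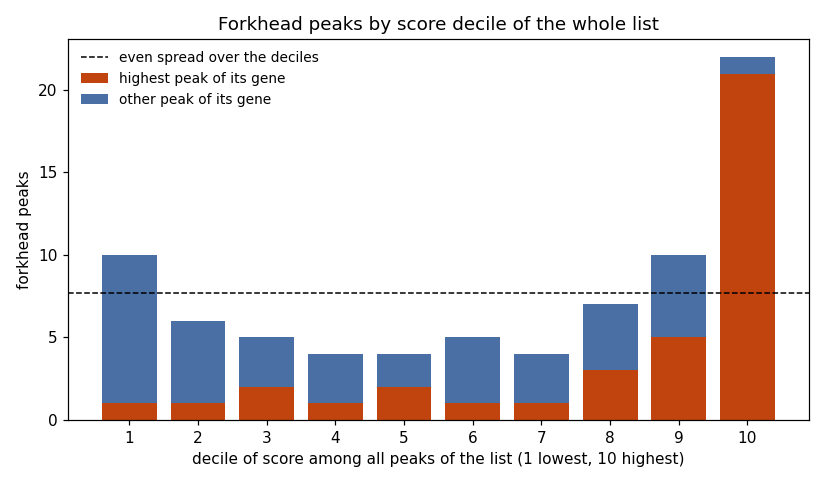
Bars count forkhead peaks in each decile of the whole list ranked by the authors' score, split into the highest peak of each gene and its other peaks; the dashed line is an even spread. The top decile held 22 forkhead peaks, of which 21 were the highest of their gene, and the bottom decile held 10, of which 1 was.

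Of the 38 linked genes, 19 (50.0%) had 1 peak and 19 had several. Of all coding genes with a peak, 72.1% had 1. The 38 highest peaks had a median score of 581.94 and a median width of 1664.5 bp, while the other 39 had 158.78 and 996 bp. A highest peak exceeds its companions by definition, so the same summary over all coding genes is the measure to set beside it: their highest peaks had a median of 273.2 and their other peaks one of 135.5. The median of the highest peaks was 577.8 in Sox genes, close to that of forkhead genes, and 271.6 in Pou genes. Of the 38 forkhead genes, 21 (55.3%) had their highest peak in the top decile, against 14.2% of all coding genes with a peak. Genes with more peaks have more chances of a high one, so genes with exactly 1 peak were also set side by side. The 19 such forkhead genes had a median score of 417.55, against 248.72 for the 8749 such coding genes. In the 19 forkhead genes with several peaks, the highest scored 1.09 to 11.8 times the next, with a median ratio of 2.49, and it was also the widest in 17.

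**Figure D3:**
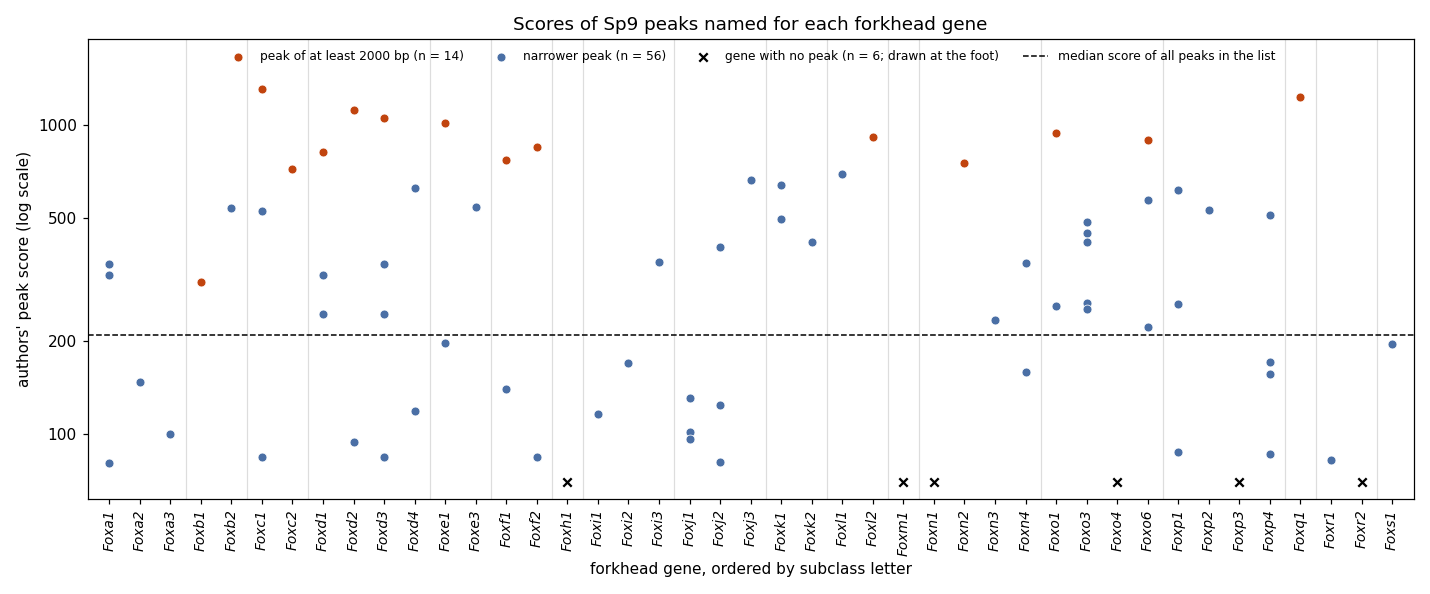
Each point is 1 Sp9 peak, placed by the authors' score on a log scale for 43 forkhead genes in order of subclass letter; orange points are peaks of at least 2000 bp, crosses are genes with no peak and the dashed line is the list's median score of 210.06. Of the 14 broad peaks shown, 13 scored between 722.68 and 1308.26 and the other, at Foxb1, scored 311.33.

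Subclass D, 4 genes of which Foxd3 is known from neural crest and Foxd1 from retina and kidney stroma, was linked throughout, with 12 peaks. Foxd3 had 5, with scores of 1057.87, 354.7, 244.92, 84.59 and 84.47. They spanned 225.0 kb on chromosome 4 from 99100080 to 99325105, and the highest (chr4:99322462-99325105, 2643 bp) stood at the end of the run with the largest coordinate. Foxd2 had a peak of 1116.53 (chr4:114579654-114582305, 2651 bp) and one of 94.69 (chr4:114574444-114575116), the widest ratio between a highest and a next peak, 11.8. Foxd1 had 3, of 815.92 (chr13:99123843-99126253), 328.06 (chr13:99135653-99136986) and 244.88 (chr13:99160762-99161758), all above the list's median. Foxd4 had 627.26 (chr19:24973884-24975340) and 118.8 (chr19:24971470-24972566). Each of the 4 genes thus had a highest peak of at least 627.26.

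Subclasses C, F, L and Q hold genes best known from mesenchyme, vessels, gut wall, ovary and hair, and each of their 7 genes had a highest peak of at least 694.64. Foxc1, which acts in the meninges, eye and vessels, had peaks of 1308.26 (chr13:31898051-31900836, 2785 bp), 526.81 (chr13:31902485-31903947) and 84.26 (chr13:31893547-31894287). Its paralog Foxc2, known from lymphatic vessels, had 1 of 722.68 (chr8:123639836-123642041). Foxq1, the gene of the satin coat mutant, had 1 of 1230.39 (chr13:31649489-31652236, 2747 bp). The mesenchymal genes Foxf1 and Foxf2 each had 1 broad and 1 low peak. For Foxf1 these scored 768.76 (chr8:123606691-123609406) and 140.1 (chr8:123612984-123613850). For Foxf2, also a gene of brain pericytes, they scored 851.14 (chr13:31717207-31719373) and 84.47 (chr13:31711898-31712708). Foxl2, the ovarian factor, had 1 peak of 914.73 (chr9:98855002-98857911), at 2909 bp the widest of the family. Foxl1, a gene of gut mesenchyme, had 1 of 694.64 (chr8:123651509-123653325). Broad peaks were present at 6 of the 7, the exception being Foxl1 with 1816 bp.

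In subclass E, the thyroid factor Foxe1 had a broad peak and a lower one, of 1012.87 (chr4:46356257-46358437) and 196.85 (chr4:46317582-46318426). Foxe3, a lens factor, had 1 peak of 545.04 (chr4:114597271-114598780).

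Several of these genes are neighbours, and their peaks formed runs with few other names. Foxq1, Foxf2 and Foxc1 follow each other with no other coding gene between them in the gene table. All 6 peaks within the 254.5 kb from the first Foxq1 to the last Foxc1 base carried 1 of these 3 names. Foxf1, Foxc2 and Foxl1 lie in a second cluster, with Mthfsd, a folate enzyme gene, between them. There, 46.6 kb held 4 forkhead peaks and 1 peak named Mthfsd. Foxd2 and Foxe3 share 24.3 kb with 3 peaks and no other name. In each cluster every forkhead gene had its own peak of at least 545.04. The Foxf1 run was also flanked by a peak of 138.55 named for Fendrr, a noncoding gene, 1712 bp from the highest Foxf1 peak.

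**Figure D4:**
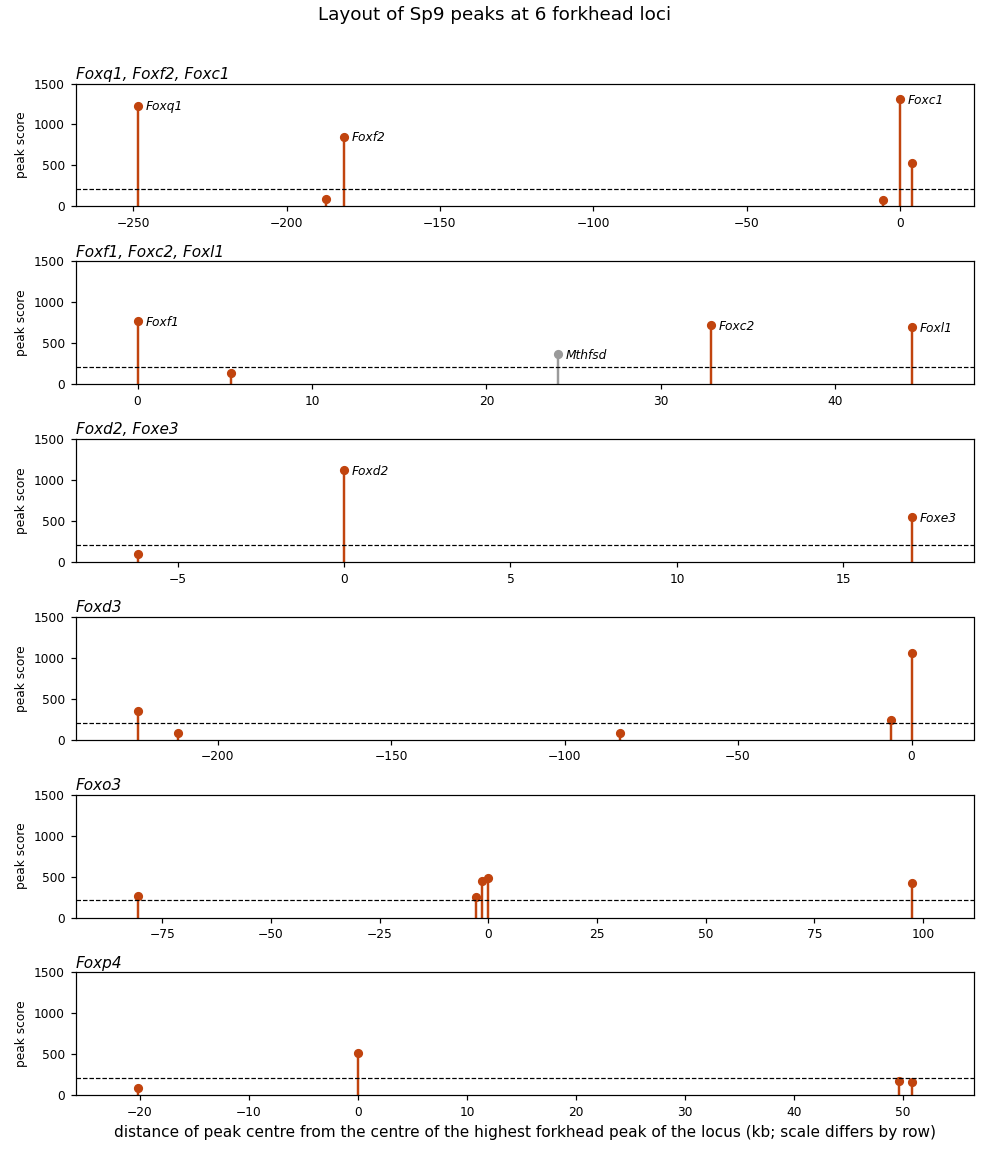
Each panel is 1 forkhead locus: lines and points give the authors' score of each peak against the distance in kb of its centre from that of the highest forkhead peak, grey is a peak with another name, and the dashed line is the list's median score. The horizontal scale differs by row. Foxd3 had its highest peak at 1 end of the run, whereas Foxo3 had 3 peaks side by side in its middle.

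Subclass O, the targets of insulin and Akt signalling, was the only one with more than 4 peaks in which none lay below the list's median. Its 3 autosomal genes had 10 peaks, scoring from 222.2 to 941.36 with a median of 432.8. Foxo1, a regulator of metabolism and survival, had peaks of 941.36 (chr3:52071352-52074184, 2832 bp) and 259.71 (chr3:52240254-52241259), 166.1 kb apart. Foxo6, which is expressed mainly in brain, had 894.45 (chr4:119939621-119941989), 571.59 (chr4:119959206-119960805) and 222.2 (chr4:119954797-119956167). Foxo3, known for keeping neural stem cells quiescent, had 5 peaks of 486.17, 447.09, 418.58, 265.62 and 254.63, each 1088 to 1444 bp wide, between 41916632 and 42095915 on chromosome 10. As called, its form differed from that of Foxo1. No single Foxo3 peak was broad, the highest was 1.09 times the next, and 3 of the 5 lay side by side with gaps of 6 and 88 bp. These 3 were 1444, 1405 and 1211 bp wide, so taken as 1 region they would pass 2000 bp. Whether they are 1 region split in calling was not tested. Foxo4, on chromosome X, had no peak.

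Subclass P had 8 peaks with a median score of 217.72. Foxp1, a factor of striatal and cortical neurons, had peaks of 618.84 (chr6:99471192-99473095), 264.13 (chr6:98977885-98979136) and 87.93 (chr6:99470357-99471051). The first and the last lay 141 bp apart and the other 491.2 kb away. Foxp2, known for its part in vocal learning and speech, had 1 peak of 530.8 (chr6:14851001-14852123). Foxp4 had 4, of 513.96, 171.31, 156.9 and 86.3, within 71.8 kb of chromosome 17 (48040978 to 48112739). Foxp3, the factor of regulatory T cells, had none. The 3 linked Foxp genes thus had highest scores between 513.96 and 618.84.

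Both Foxk genes, broadly expressed regulators of metabolism and autophagy, were linked, and their 3 peaks scored at least 417.55. Foxk1 had 638.07 (chr5:142877122-142878275) and 498.48 (chr5:142843157-142843966), and Foxk2 had 417.55 (chr11:121120745-121122098). The Foxk1 peak of 498.48 was only 809 bp wide, and the other forkhead peaks under 1000 bp scored at most 244.88.

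Foxj1, the regulator of motile ciliogenesis, stood low. Its 3 peaks scored 131.23 (chr11:116195249-116196096), 102.02 (chr11:116196426-116197378) and 96.5 (chr11:116193171-116194101). All 3 were below the list's median and lay within 4.21 kb. The related Foxj2 had 403.99 (chr6:122769635-122770764), 124.41 (chr6:122751459-122752195) and 81.72 (chr6:122761039-122761825), and Foxj3 had 1 of 663.8 (chr4:119211740-119213065). By their highest peak, Foxj3 lay above 94.6% of all peaks, Foxj2 above 80.4% and Foxj1 above 26.7%.

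In subclass N, Foxn2 had 1 broad peak of 754.69 (chr17:88839347-88841505, 2158 bp). Foxn3, a checkpoint factor, had 1 of 234.03 (chr12:100630074-100631985), 1911 bp wide. Foxn4, which specifies retinal and spinal interneurons, had 357.04 (chr5:114723390-114724821) and 158.78 (chr5:114698112-114699119). Foxn1, the thymus and hair factor mutated in nude mice, had none.

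Subclasses A, I, R and S had no score above 360.46. Among the pioneer factors of endoderm and floor plate, Foxa1 had 3 peaks within 8.69 kb, of 355.88 (chr12:58642986-58644499), 327.37 (chr12:58639250-58640340) and 80.99 (chr12:58635811-58636476). Foxa2, also a factor of midbrain dopamine neurons, had 1 of 147.93 (chr2:147869217-147870451). Foxa3 had 1 of 100.27 (chr7:19608575-19609167), only 236 bp from a peak of 285.01 named for Sympk, an RNA processing gene, and the list does not say which of the 2 genes starts nearer. The ear and epithelial factors Foxi1, Foxi2 and Foxi3 had 1 peak each, of 116.3 (chr11:34107515-34108315), 170.49 (chr7:142601898-142602689) and 360.46 (chr6:70906281-70907363). Foxs1, known from sensory neurons and pericytes, had 196.07 (chr2:152757954-152759019), and Foxr1 had 82.74 (chr9:44248553-44249232), above only 1.44% of all peaks. The 7 linked genes with no peak at the list's median were Foxa2, Foxa3, Foxi1, Foxi2, Foxj1, Foxr1 and Foxs1.

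In subclass B, Foxb2 had 1 peak of 540.79 (chr19:16946695-16948121), above every score of subclasses A, I, R and S. Foxb1, a gene of the hypothalamus and spinal cord, had 1 of 311.33 (chr9:69606934-69609092). It was 2158 bp wide, and all the other broad forkhead peaks scored at least 722.68.

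The 6 coding forkhead genes without a peak were Foxh1, the Smad partner of Nodal signalling, Foxm1, the driver of mitotic genes, Foxn1, Foxo4, Foxp3 and Foxr2. The last 3 are all the forkhead genes of chromosome X, where 42.3% of coding genes had a peak, a lower share than on any autosome, and where the median score was 175.5. On the autosomes, 38 of 41 forkhead genes (92.7%) had a peak, against 56.7% of coding genes. Of the direct neighbours in the gene table, Rhno1 beside Foxm1 had a peak of 348.39, Unc119 beside Foxn1 one of 342.05 and Ppp1r16a beside Foxh1 one of 152.57, while Tex52, Slc13a2 and Kifc2 on the other sides had none. On chromosome X, Snx12 beside Foxo4 had 135.89 and Rragb beside Foxr2 had 93.09, and both neighbours of Foxp3 had none. With 55.4% of all coding genes linked, nothing is read from these neighbours. How near these peaks lie to the forkhead genes was not tested.

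Broad peaks were frequent among the highest members. At least 2000 bp was reached by 15 of 77 forkhead peaks (19.5%), against 3.63% of all peaks, and no gene had more than 1. Of linked forkhead genes, 15 of 38 (39.5%) had a broad peak, against 5.09% of coding genes with a peak. Of linked Sox genes 37.5% did, and of linked Pou genes 16.7%. Among the 15 were peaks of Foxb1, Foxc1, Foxc2, Foxd1, Foxd2, Foxd3, Foxe1, Foxf1, Foxf2, Foxl2, Foxn2, Foxo1, Foxo6 and Foxq1. Subclasses A, I, J, K, P, R and S had none among the peaks as called. In J and P this depended on the calls being kept apart. Neighbouring calls of 1903 and 694 bp at Foxp1 lay 141 bp apart, and those of 1139 and 797 bp at Foxp4 158 bp apart. At Foxj1, calls of 847 and 952 bp lay 330 bp apart. Each pair would pass 2000 bp if joined, and broad peaks were not recounted after merging. Just inside the 2000 bp limit lay the peaks of Foxb1 and Foxn2, both of 2158 bp, and just outside it those of Foxp4 (1985 bp) and Foxn3 (1911 bp). Score went up with width in the forkhead peaks as in the list, and the rank correlation of width and score (Spearman) was 0.882 over the 77 forkhead peaks and 0.745 over the whole list. The peaks share 1 set of libraries and are not independent.

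Set beside other peaks of like width, the broad members were still high and the narrow ones were not. Of the 15 forkhead peaks of at least 2000 bp, 13 exceeded the median of the other 710 peaks in that class, with a median score of 914.73 against 744.7. From 1500 to 2000 bp, 5 of 7 did, with medians of 545.04 and 484.7. Below 800 bp, 3 of 15 forkhead peaks exceeded the median of the others, with medians of 87.9 and 116.5. Having 3 or more peaks was the state of 11 of 38 linked forkhead genes (28.9%), against 10.1% of coding genes with a peak. Among the 39 gaps between neighbouring peaks of 1 gene, 4 were under 200 bp and 11 over 50 kb, with a median of 10.7 kb.

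**Figure D5:**
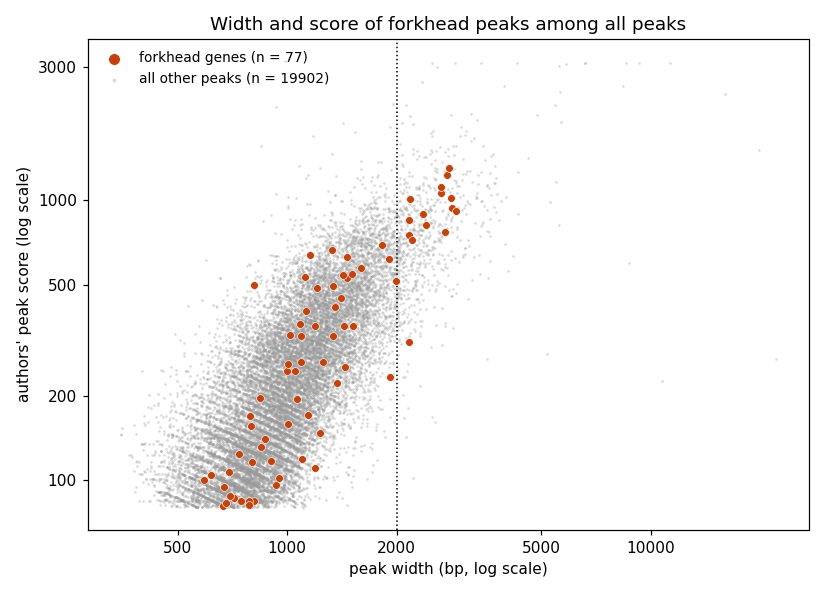
Each point is 1 peak of the list, placed by its width in bp and the authors' score, both on log scales; orange points are the 77 forkhead peaks, grey points the 19902 others and the dotted line marks 2000 bp. Forkhead peaks run along the upward trend of the list, and 14 of the 15 beyond the line score at least 722.68.

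Genes that act with forkhead factors were linked to peaks to different degrees. Of 21 regulators of FoxO proteins, 20 had a peak and 17 one at or above the list's median, with the 14-3-3 gene Ywhaz at 732.1 and the PI3-kinase subunit Pik3r1 at 672.04, while Pik3ca had none. Of 20 known FoxO target genes, 17 had a peak and 13 one at or above the list's median. The highest were the insulin receptor substrate Irs2 (1103.83), Cited2 (1087.86) and the cell death gene Bcl2l11 (994.97). Fbxo32 (171.73), Cat (169.79), Pck1 (126.84) and Pdk4 (102.51) lay below the list's median, and Gadd45a, Trim63 and G6pc had no peak. A list of corepressors of forkhead factors such as Foxp1 had 17 of 18 genes linked, and the Groucho family genes Tle1, Tle3, Tle4, Tle2 and Tle5 had highest scores of 991.13, 799.21, 555.08, 226.63 and 114.83. Of 18 ciliogenesis genes around Foxj1, 12 were linked. Among the regulators, Gmnc scored 780.68, Rfx3 530.15, Ccno 528.89, Mcidas 275.56, Myb 265.46 and Rfx1 225.9. Rfx4 (144.36) and Rfx2 (121.27) lay below the list's median. Structural genes went both ways: Dnah5 (369.01), Dnah9 (304.08), Ift88 (211.94) and Dnaic1 (84.47) were linked, and Tekt1, Tekt2, Hydin, Spag6, Dnah11 and Dnaic2 were not. Of 14 genes of the Foxm1 complex and its targets, 9 were linked, led by Lin9 with 596.88. The shares of the lists were 95.2%, 85.0%, 94.4%, 66.7% and 64.3% in this order, and none was tested. Of all coding genes 55.4% had a peak, and of named coding genes outside the receptor families 62.9%. The Foxj1 and Foxm1 lists lay near that last share.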

How the data were processed

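Per the labels' protocols, crosslinking took 10 min with formaldehyde at 1%, sheared fragments measured 200 to 1000 bp, and sequencing gave paired reads of 150 bases. The submitters' processing notes list Bowtie2 2.2.4, MACS 1.4.2 and mm9, without roles or settings. The authors deposited 1 list of shared peaks with 1 peak score per peak. The score's formula, the rule for sharing, the gene annotation and the read depth were not stated in those notes or in the file, so the score was used only to rank and filter within the list. Whether starts count from 0 or 1 is not stated; a width is end minus start.

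Names were matched to the RefSeq gene table of GRCm38.p6, 12806 by symbol and 527 by a unique synonym, with 50 unmatched; all 38 forkhead names matched by symbol. That table served for names and gene order, and the RefSeq promoter table, of the same build, was searched over 250 bases before each start. The share of forkhead genes with a peak carries an exact Clopper-Pearson interval at 95%, which covers counting over genes only. The other shares are given without an interval. Percentiles, counts and medians were computed with Python 3.11.15, pandas 2.3.3 and scipy 1.17.1, and the counting was checked on a planted list. No hypothesis test was run. The rule was to name every forkhead gene; 1 of them is counted with the family but not reported here; the members, lists and limits were chosen with earlier results of these data known, and the 2000 bp limit, the Sox, Pou and Zfp families and the choice of promoters shown after the values had been seen. The input has no values of its own in the list, and the alternatives tried are given at the end.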

Additional observations from a re-analysis of the deposited data

How the results depend on the processing

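As deposited there were 77 forkhead peaks with a median score of 327.37 and a median width of 1191 bp. With peaks at or above the list's median score only, 48 peaks remained, 70.5% of the forkhead genes had one, the median score was 520.4 and the median width 1450 bp. The median score was 581.94 for the highest peak of each gene, 101.1 for peaks up to the list's median width and 486.17 for wider ones. In a split added after seeing the data, it was 914.73 for peaks of at least 2000 bp. For narrower ones it was 239.5, within the interval of the first value, and the whole list had 210.06. The share of promoters with a GC box was 69.7% for GGGCGG and 9.09% for GGGGCGGGG. With named coding genes outside the receptor families as background, 62.9% had a peak instead of 55.4%. A lower count, a lower share and a higher median score follow by construction from keeping only peaks at or above the list's median. The longer motif cannot be more frequent than the shorter one it contains. Taking the highest peak of each gene favours high scores by definition. Score went up with width in the forkhead peaks, with a rank correlation of 0.882, so splits by width also separate scores. What led to the other changes was not tested. Of the 169 recomputed values, 159 stayed within 1.5 times or within the interval of the first value. They included a minimum score of 100, merging same-named peaks within 1000 bp, names with a suffix and leaving out each subclass. They also included autosomes only, a choice added after seeing the data, with a share of 92.7% against 86.4% as deposited. The number of broad peaks was not among the recomputed values. Most of the 169 came from leaving out 1 subclass. The largest subclass, D, held 12 of the 77 peaks, so no count could move by 1.5 times there. The number that stayed is therefore no measure of stability. Leaving out 1 subclass at a time gave median scores from 288.5 to 329.6 and shares from 85.0% to 88.4%. Leaving out a library and another overlap rule were not run, because the list holds no value per library. No paired analysis was possible because the list holds no value per library. Because read depth is unknown, a gene without a peak may carry Sp9 below the level at which the authors called peaks.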
